A study of Homo sapiens with 6 samples.

Results

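The DNA replication machinery was described here through 48 mouse genes, taken from the table by name. They encode the origin recognition complex, the licensing factors, the replicative helicase and its activators, the DNA polymerases, the sliding clamp and its loader, the single-strand binding protein, and factors for nucleotide supply and for chromatin behind the fork. All 48 were among the 22413 genes of the deposited table, and all 48 passed the filter on low values. The samples came from BaF3-T315I cells, a murine line derived from pro-B cells and stably transfected with BCR-ABL carrying the T315I mutation, which both groups share. The mRNA was sequenced in 3 control samples and in 3 samples treated with 1.1 µM of I13, an inhibitor of histone deacetylases. A single transfected line was used, and the labels do not say whether the replicates were separate cultures, so the p-values measure the spread between these samples, which may be technical. The labels give neither the exposure time nor the time of the control.

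DNA replication is prepared in G1, when the origin recognition complex, Cdc6 and Cdt1 load the MCM hexamer onto origins. In S phase, Cdc45 and the GINS complex join the MCM ring to form the active helicase, polymerase alpha with primase starts each strand, and polymerases delta and epsilon extend them, held by the PCNA clamp that replication factor C loads. Many of these genes are targets of E2F transcription factors, and their mRNA is generally abundant in dividing cells such as a leukemia line.

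For control replicates 1, 2 and 3 the library total was 17722950, 17632514 and 17622311 fragments. For I13 replicates 1, 2 and 3 it was 17623236, 16762119 and 17506309 fragments. Levels are given as FPKM, fragments of a gene scaled by its length in kilobases and by the depth of the library. The replication genes had between 65 and 13641 fragments in a sample, so that most of them were well covered. Mean FPKM over the 6 samples ran from 2.28 for Fen1 to 188.8 for Mcm3, with a median of 25.8, and 43 of the 48 genes lay above the median level of the 12163 genes tested. Changes are given as log2 fold changes of I13 over control on the log2(FPKM + 0.1) scale, which understates the change of low genes. They were tested with limma over all 12163 genes whose mean FPKM reached 0.5, and a gene was called when its Benjamini-Hochberg adjusted p was below 0.05 and its log2 fold change was 0.58 or more in size.

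Markers were read before the replication genes. The receptor subunits for IL-3, on which the parental line depends, were abundant, with Csf2rb at 286, 239 and 463 FPKM in the controls and 448, 477 and 838 FPKM after I13. Csf2rb2 and Csf2rb are close relatives, and fragments may be shared between them. The pan-leukocyte gene Ptprc and the B cell receptor genes Cd79a and Cd79b were present, whereas the pro-B cell genes Ebf1, Pax5, Vpreb1 and Igll1 had at most 2 fragments in any sample. The 10 listed markers of the line summed to 664 ± 237 FPKM in the controls (SD, n = 3). After I13 the sum was 1218 ± 418 FPKM (SD, n = 3). Of the 6 tested, 5 were higher, with a median log2 fold change of 0.39. An unadjusted p below 0.05 from limma was found for 3, against 18.6% of all genes. The part of this difference in the results was not tested. Kit, Rag1 and Rag2 are not analysed here. Some libraries also stood apart in the replication genes whatever the treatment. Control replicate 1 and I13 replicate 3 were mostly low, and replicate 2 of both groups was mostly high, as given in full further on.

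Markers of other cells added up to 40.4, 20.6 and 42.3 FPKM in the controls and 80.7, 56.2 and 81.2 FPKM after I13, over the 10 listed genes of the 14 chosen. The most abundant of them was Adgre1, a macrophage marker, at 37.6, 18.1 and 40.1 FPKM in the controls and 72.1, 44.1 and 76.7 FPKM after I13. The globin genes Hba-a1 and Hbb-bt and the myeloid gene Lyz2 were low but also higher in every I13 sample than in every control, with Hba-a1 at 17, 3 and 8 fragments against 81, 40 and 30. Cd3e, Cd3d, Cd8a, Csf1r and Col1a1 were at or near 0. These markers were higher in the same samples in which each difference below was measured, and their part in the results was not tested.

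After I13, 0 of the 48 replication genes were called by limma and 0 had an adjusted p below 0.05, while 12 had an unadjusted p below 0.05. Their adjusted p ran from 0.109 to 0.991. Over all genes the same rule called 4 higher and 1 lower, or 0.0411% of the genes tested. With voom on the fragments behind the FPKM, and no block, the replication genes gave 0 called and 0 with an adjusted p below 0.05. Over all genes 0.0493% were called, and the same share had an adjusted p below 0.05. At an unadjusted p below 0.05 there were 13 replication genes, against 19.4% of all genes. With the replicate number as a block, 1 had an adjusted p below 0.05 (Orc2), against 2.99% of all genes, and with the block and voom together 9 had (Orc2, Orc4, Mcm5, Cdc45, Pold1, Rfc4, Rfc5, Rpa3 and Tk1), against 12.4% of all genes. None of the 48 was called in either fit. Of all genes, 1.89% were called in the blocked fit without voom and 4.14% in the one with voom. The adjusted p given for each gene below is from the fit without the block and without voom unless stated. The median log2 fold change of the replication genes was -0.05, against -0.0053 over all genes tested, with 20 genes higher and 28 lower. The changes were small in size. The extremes were -0.42 for Rfc4 and 0.47 for Orc4, no replication gene reached 0.58 in either direction, and 9.41% of all genes did. Less RNA per cell and fewer cells in S phase cannot be told apart in such bulk samples.

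The precision was sufficient to bound most of these changes. For 36 of the 48 genes the 95% interval of the log2 fold change lay inside the limits of -0.58 and 0.58, and for 12 it reached past one of them. Those 12 were Orc2, Orc4, Dtl, Gins3, Pola1, Pold1, Rfc2, Rfc4, Rfc5, Rpa3, Fen1 and Tk1. These intervals are from the fit without the block. With the replicate number as a block the standard error was smaller for all 12, as for Rfc2 (0.105 against 0.224) and Orc2 (0.067 against 0.122). Intervals of the blocked fit were not counted against these limits. Without the block, the standard error had a median of 0.123 among the replication genes and of 0.151 over all genes tested. An absolute log2 fold change under 0.25 was found for 33 replication genes (68.8%), against 61.1% of all genes.

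**Figure D1:**
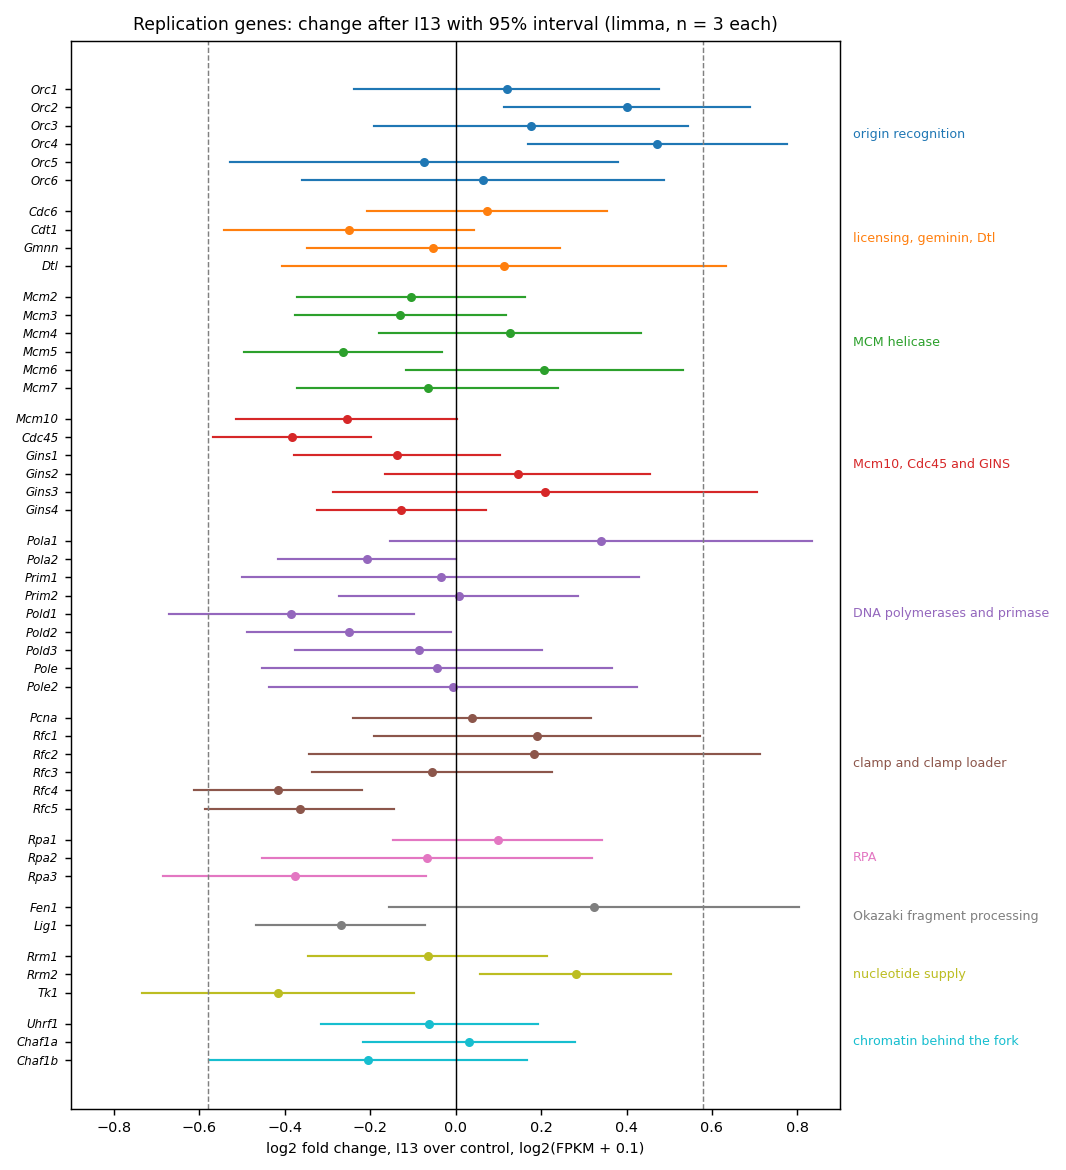
The log2 fold change of each of the 48 replication genes (x axis, I13 over control, on the log2(FPKM + 0.1) scale) is drawn as a point with its 95% interval from limma, n = 3 samples a group, coloured by role. Dashed lines mark -0.58 and 0.58, and no point lies outside them, from -0.42 for Rfc4 to 0.47 for Orc4.

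Below the adjusted threshold, an unadjusted p under 0.05 was found for 12 replication genes, 3 higher and 9 lower, against 18.6% of all genes (7.79% higher and 10.8% lower). The 3 control values and the 3 I13 values did not overlap for 14 replication genes, of which Orc2, Orc4 and Rrm2 were higher after I13 and 11 were lower. Over all genes the groups did not overlap for 25.2%, with 9.82% higher and 15.4% lower. The 11 lower genes were Mcm5, Cdc45, Gins4, Pola2, Pold1, Pold2, Rfc4, Rfc5, Rpa3, Lig1 and Tk1. The count of unadjusted p under 0.05 rested in part on single libraries, as it was 5 without I13 replicate 1, when 2 genes were higher and 3 lower and the share over all genes was 12.2%. Without control replicate 2 it was 8, with 3 higher and 5 lower, against 15.8% of all genes. Without control replicate 1 it was 14, with 2 higher and 12 lower, against 13.1% of all genes.

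The origin recognition complex, which marks the sites where replication can start, had 5 of its 6 genes with a positive log2 fold change and a median of 0.15. This median was 0.07 without control replicate 1 or without I13 replicate 2, when 4 of 6 were positive, and 0.27 and 0.25 without control replicate 2 or I13 replicate 3, when 6 of 6 were. Orc2 (ENSMUSG00000026037) was at 25.4, 27.0 and 21.5 FPKM in the controls and at 33.5, 35.2 and 28.9 FPKM after I13. Every I13 sample lay above every control, and replicate 3 was the lowest of its group under both conditions. The control mean was 24.6 ± 2.82 FPKM and the I13 mean 32.5 ± 3.26 FPKM (SD, n = 3 each), which gave a log2 fold change of 0.40 with a standard error of 0.12 and an adjusted p of 0.165 from limma. With the replicate number as a block, Orc2 rose with an adjusted p of 0.0478 from limma, still under the fold threshold, and it was the only replication gene below 0.05 in that fit, where 2.99% of all genes were. Dropping replicate 1, 2 or 3 from the blocked fit left 0 replication genes with an adjusted p below 0.05 by limma. Over all genes the share at that threshold was 0.699%, 0% and 0%. At an unadjusted p below 0.05 there were 16, 10 and 14 replication genes, against 21.9%, 13.5% and 26.0% of all genes.

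Orc4 (ENSMUSG00000026761), another core subunit, was at 4.33, 5.38 and 4.86 FPKM in the controls and at 7.16, 7.17 and 6.00 FPKM after I13. Again the groups did not overlap, and its log2 fold change of 0.47 (95% interval 0.17 to 0.78, adjusted p = 0.14 from limma) was the highest among the replication genes. Orc6, the subunit with the highest FPKM of the complex, was at 31.7, 47.7 and 41.4 FPKM in the controls and 41.1, 49.3 and 35.4 FPKM after I13. Here the spread within each group was wider than the difference between them, with a log2 fold change of 0.06 ± 0.18 (standard error). Orc1 and Orc3 had log2 fold changes of 0.12 and 0.18 and Orc5 of -0.07, all 3 with overlapping groups. The level of Orc2 set it apart from the remaining core subunits, since control means were 5.36, 10.8, 4.86 and 4.52 FPKM for Orc1, Orc3, Orc4 and Orc5. Summed over the 6 genes, the level was 90.4 ± 12.5 FPKM in the controls and 104 ± 13.8 FPKM after I13 (SD, n = 3 each).

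Among the factors that license origins and limit licensing, the median log2 fold change was 0.01, and it ran from -0.085 without I13 replicate 2 to 0.083 without control replicate 2. Cdt1, which brings the MCM ring to the origin, was at 39.7, 48.2 and 49.0 FPKM in the controls and at 37.2, 43.1 and 34.7 FPKM after I13. Each I13 sample was below the control of the same number, but the groups overlapped, and the log2 fold change of -0.25 had an interval from -0.54 to 0.04 (adjusted p = 0.327 from limma). Gmnn, which encodes geminin, the inhibitor of Cdt1, had a log2 fold change of -0.05, and Cdc6, the ATPase that acts with Cdt1, of 0.07. Dtl, part of the ubiquitin ligase that removes Cdt1 in S phase, had 0.11 with a wide interval, from -0.41 to 0.63.

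The MCM genes, whose products form the hexameric ring of the helicase, were the most abundant role group, with a summed level of 654 ± 39.6 FPKM in the controls and 624 ± 65.9 FPKM after I13 (SD, n = 3 each). Their levels per length were unequal. In the controls Mcm3 was at 197 ± 9.67 FPKM and Mcm5 at 177 ± 7.72 FPKM, followed by Mcm6 at 107 ± 14.8 FPKM. Mcm4, Mcm7 and Mcm2 came next at 62.1 ± 7.0, 60.4 ± 7.52 and 49.4 ± 5.34 FPKM (SD, n = 3 each), and Mcm4 and Mcm7 did not differ beyond their spread. The products occur once each in the hexamer.

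Mcm5 (ENSMUSG00000005410) was the MCM gene with the largest absolute change, at 174, 186 and 172 FPKM in the controls and at 147, 164 and 134 FPKM after I13. The highest I13 value stayed below the lowest control value. Its log2 fold change was -0.26 with a standard error of 0.10 (adjusted p = 0.221 from limma). Mcm3 was at 205, 199 and 186 FPKM in the controls and at 198, 186 and 158 FPKM after I13, a log2 fold change of -0.13 (adjusted p = 0.539 from limma) with overlapping groups, which was -0.20 without I13 replicate 1 and -0.04 without I13 replicate 3. Mcm6 and Mcm4 had positive values of 0.21 and 0.13, and Mcm2 and Mcm7 negative ones of -0.10 and -0.07. With 1 library left out, Mcm6 ran from 0.11 to 0.31 and Mcm4 from 0.035 to 0.23. Mcm2 ran from -0.19 to -0.04, and Mcm7 from -0.15 to 0.03, which changed its sign. The median of the 6 genes was -0.08, and it ran from -0.15 without I13 replicate 2 to -0.0044 without control replicate 2.

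Cdc45 and the GINS subunits turn the loaded ring into a moving helicase, and Mcm10 is needed for this step. Cdc45 (ENSMUSG00000000028) was at 26.4, 26.4 and 27.8 FPKM in the controls and at 20.3, 20.7 and 20.7 FPKM after I13. The replicates were closer to each other than in most replication genes, and the groups were clearly separate. The means were 26.9 ± 0.812 FPKM in the control and 20.6 ± 0.224 FPKM after I13 (SD, n = 3 each). Its log2 fold change was -0.38 with an interval from -0.57 to -0.20 and an adjusted p of 0.109 from limma, together with Rfc4 the lowest adjusted p among the 48 genes.

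Its partners in the helicase had smaller differences. Gins4, the GINS gene with the highest FPKM, was at 39.7, 43.0 and 40.2 FPKM in the controls and at 36.2, 39.6 and 36.7 FPKM after I13, and the groups were separated only by the small gap between 39.6 and 39.7 FPKM. Its log2 fold change was -0.13 (adjusted p = 0.451 from limma). Gins1 was at -0.14, while Gins2 and Gins3 had positive values of 0.15 and 0.21. With 1 library left out, Gins1 ran from -0.19 to -0.06, Gins2 from 0.018 to 0.25 and Gins3 from 0.013 to 0.34. Mcm10 had a log2 fold change of -0.26 with an interval from -0.51 to 0.0034, and its groups overlapped. Whether Cdc45 differed from the GINS genes in its response was not tested.

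**Figure D2:**
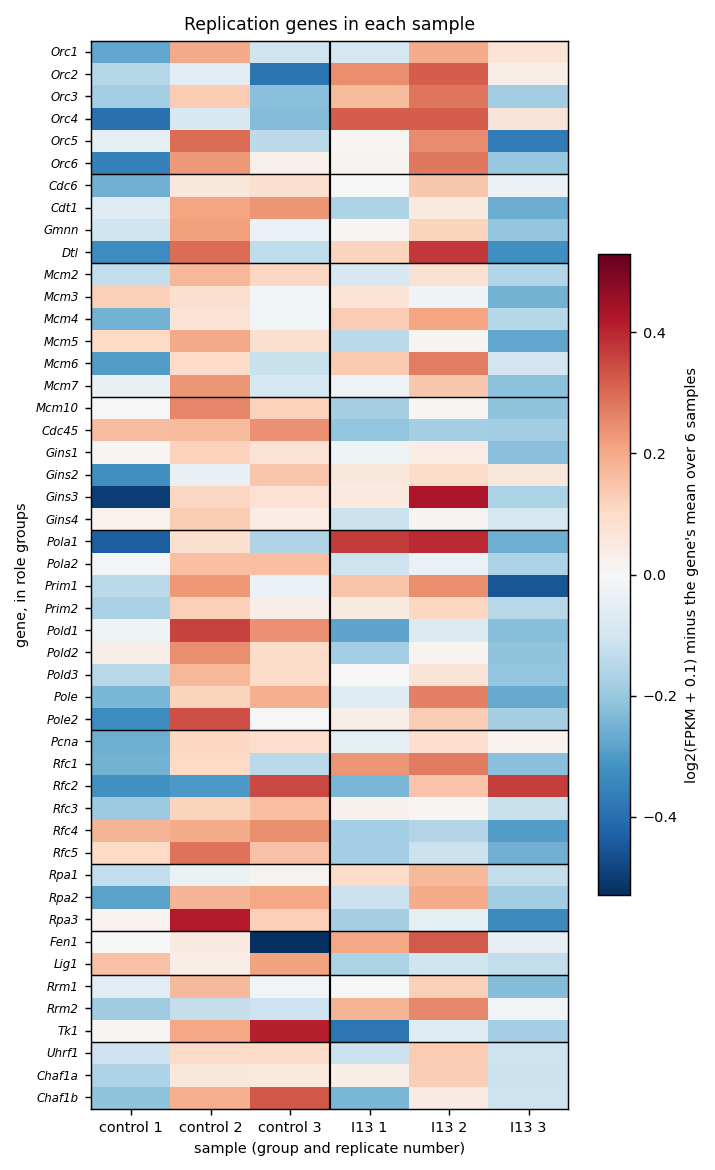
Each row is 1 of the 48 replication genes in order of role, each column 1 of the 6 samples, and the colour is the deviation of log2(FPKM + 0.1) from the gene's mean over the 6 samples, as the colour bar gives it. Control replicate 1 and I13 replicate 3 are mostly below the mean, with 11 and 6 genes above it, and replicate 2 of both groups is mostly above it, with 42 genes in the control and 39 after I13.

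Among the DNA polymerases, Pold1 and Pold2 of polymerase delta, which extends the lagging strand, had the largest negative differences. Pold1 (ENSMUSG00000038644), its catalytic subunit, was at 29.9, 39.0 and 36.0 FPKM in the controls and at 25.0, 28.9 and 26.0 FPKM after I13. The lowest control lay just above the highest I13 sample. The means were 35.0 ± 4.66 and 26.6 ± 2.00 FPKM (SD, n = 3 each), and the log2 fold change was -0.38 with a standard error of 0.12 (adjusted p = 0.177 from limma).

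Pold2, an accessory subunit, was at 49.6, 57.6 and 51.9 FPKM in the controls and at 42.9, 49.0 and 41.9 FPKM after I13. Its groups did not overlap either, with a log2 fold change of -0.25 and an adjusted p of 0.252 from limma. Pold3, a further accessory subunit, had -0.09. For polymerase epsilon, which extends the leading strand, Pole and Pole2 were at -0.04 and -0.01.

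In the complex of polymerase alpha and primase, which makes the primers, the genes went in different directions. Pola2, an accessory subunit with the highest mean FPKM of the polymerase genes, was at 48.6, 54.6 and 54.6 FPKM in the controls and at 45.3, 47.7 and 43.6 FPKM after I13, a log2 fold change of -0.21 (adjusted p = 0.272 from limma) without overlap. The catalytic subunit Pola1 was at 9.40, 13.5 and 11.4 FPKM in the controls and at 16.5, 16.8 and 10.6 FPKM after I13. For it, I13 replicates 1 and 2 were above every control and replicate 3 was not, so its log2 fold change of 0.34 carried an interval from -0.15 to 0.83. The primase subunits Prim1 and Prim2 had -0.04 and 0.01. The median over the 9 polymerase and primase genes was -0.04, and its sign rested on single libraries. It was -0.18 without control replicate 1, and it was 0.0036 and 0.08 without control replicate 2 or I13 replicate 3, when 5 of 9 genes were positive.

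Replication factor C is a ring of 5 subunits that opens the PCNA clamp and places it on DNA. Rfc4 (ENSMUSG00000022881) had the largest negative change among the replication genes, at 29.6, 29.98 and 31.0 FPKM in the controls and 23.1, 23.5 and 21.3 FPKM after I13. The spread within each group was narrow, and a gap of several FPKM lay between the groups. With means of 30.2 ± 0.704 and 22.6 ± 1.16 FPKM (SD, n = 3 each), the log2 fold change was -0.42 with an interval from -0.61 to -0.22 (adjusted p = 0.109 from limma). Rfc5 (ENSMUSG00000029363) was at 15.8, 17.9 and 16.3 FPKM in the controls and 12.96, 13.6 and 12.3 FPKM after I13. Here too every I13 sample was below every control, with a log2 fold change of -0.36 and a standard error of 0.09 (adjusted p = 0.129 from limma).

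The other loader subunits overlapped between the groups, with log2 fold changes of 0.19 for Rfc1, 0.18 for Rfc2 and -0.06 for Rfc3. With 1 library left out, Rfc1 ran from 0.10 to 0.35, Rfc2 from 0.047 to 0.40 and Rfc3 from -0.17 to 0.009. In Rfc2 the values followed the replicate number more than the treatment, with 19.7, 19.98 and 31.4 FPKM in the controls and 20.9, 27.4 and 31.9 FPKM after I13. Replicate 3 was the highest of its group under both conditions.

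Pcna, the clamp itself and a common marker of proliferating cells, was at 143, 184 and 182 FPKM in the controls and at 165, 182 and 173 FPKM after I13. The I13 values lay within the range of the controls, and the log2 fold change was 0.04 with an interval from -0.24 to 0.32 (adjusted p = 0.889 from limma). Its level is uncertain because Pcna-ps2, a near-identical copy, was listed at 69.3 to 86.8 FPKM, and fragments may be shared between them. Together both had 7613, 9674 and 9496 fragments in the controls and 8629, 9141 and 8927 fragments after I13, so the picture was similar when they were added.

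Replication protein A covers the single strands behind the helicase, and its 3 subunits form a trimer. Rpa3, the smallest subunit, was at 46.3, 61.2 and 49.9 FPKM in the controls and at 40.4, 44.1 and 36.2 FPKM after I13. The groups did not overlap, although the highest I13 sample came close to the lowest control. Its log2 fold change was -0.38 with a standard error of 0.13 (adjusted p = 0.202 from limma). Rpa1, the large subunit, was at 44.9, 48.03 and 49.9 FPKM in the controls and at 52.9, 55.4 and 45.2 FPKM after I13, with a log2 fold change of 0.10, which was 0.06 without control replicate 1, 0.04 without I13 replicate 2 and 0.19 without I13 replicate 3. Rpa2 had -0.07, so the 3 subunits of this trimer had values on both sides of 0.

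Okazaki fragments, the short pieces of the lagging strand, are trimmed by the Fen1 nuclease and joined by the ligase Lig1. Lig1 (ENSMUSG00000056394) was at 55.2, 50.7 and 57.5 FPKM in the controls and at 44.1, 46.0 and 45.3 FPKM after I13. The I13 samples lay close together and below all controls. From means of 54.5 ± 3.43 and 45.1 ± 0.988 FPKM (SD, n = 3 each), its log2 fold change was -0.27 with a standard error of 0.08 (adjusted p = 0.172 from limma). Fen1 was the least abundant replication gene in this table, at 2.24, 2.32 and 1.52 FPKM in the controls and 2.60, 2.83 and 2.17 FPKM after I13, resting on 65 to 115 fragments a sample. Its groups overlapped, with a log2 fold change of 0.32 and an interval from -0.15 to 0.80, and the value was 0.14 without control replicate 3.

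In nucleotide supply, the 2 genes with separate groups pointed in opposite directions. Rrm2 (ENSMUSG00000020649), the small subunit of ribonucleotide reductase that is made in S phase, was at 75.1, 78.5 and 79.4 FPKM in the controls and at 97.1, 102 and 84.7 FPKM after I13. All 3 I13 samples were above the controls, replicate 3 by the smallest margin. Its log2 fold change was 0.28 with a standard error of 0.10 (adjusted p = 0.193 from limma). Tk1 (ENSMUSG00000025574), the thymidine kinase of the salvage pathway, was at 17.3, 19.8 and 22.9 FPKM in the controls and at 13.2, 16.4 and 15.2 FPKM after I13. Its highest I13 sample remained below its lowest control, and the log2 fold change was -0.42 with a standard error of 0.14 (adjusted p = 0.183 from limma). Rrm1, the large subunit of the reductase, had -0.07 with overlapping groups.

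For chromatin behind the fork, Uhrf1, which binds hemimethylated DNA and recruits the maintenance methyltransferase, was at 102, 118 and 118 FPKM in the controls and 102, 121 and 102 FPKM after I13. The groups overlapped fully, with a log2 fold change of -0.06 (adjusted p = 0.794 from limma). Chaf1b, a subunit of the histone chaperone CAF-1, was at 9.87, 13.1 and 14.4 FPKM in the controls and at 9.66, 11.8 and 10.6 FPKM after I13, a log2 fold change of -0.21 with an interval from -0.58 to 0.17. It was -0.36 without control replicate 1, -0.09 without control replicate 3 and -0.14 without I13 replicate 1. Chaf1a, the large subunit, had 0.03.

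**Figure D3:**
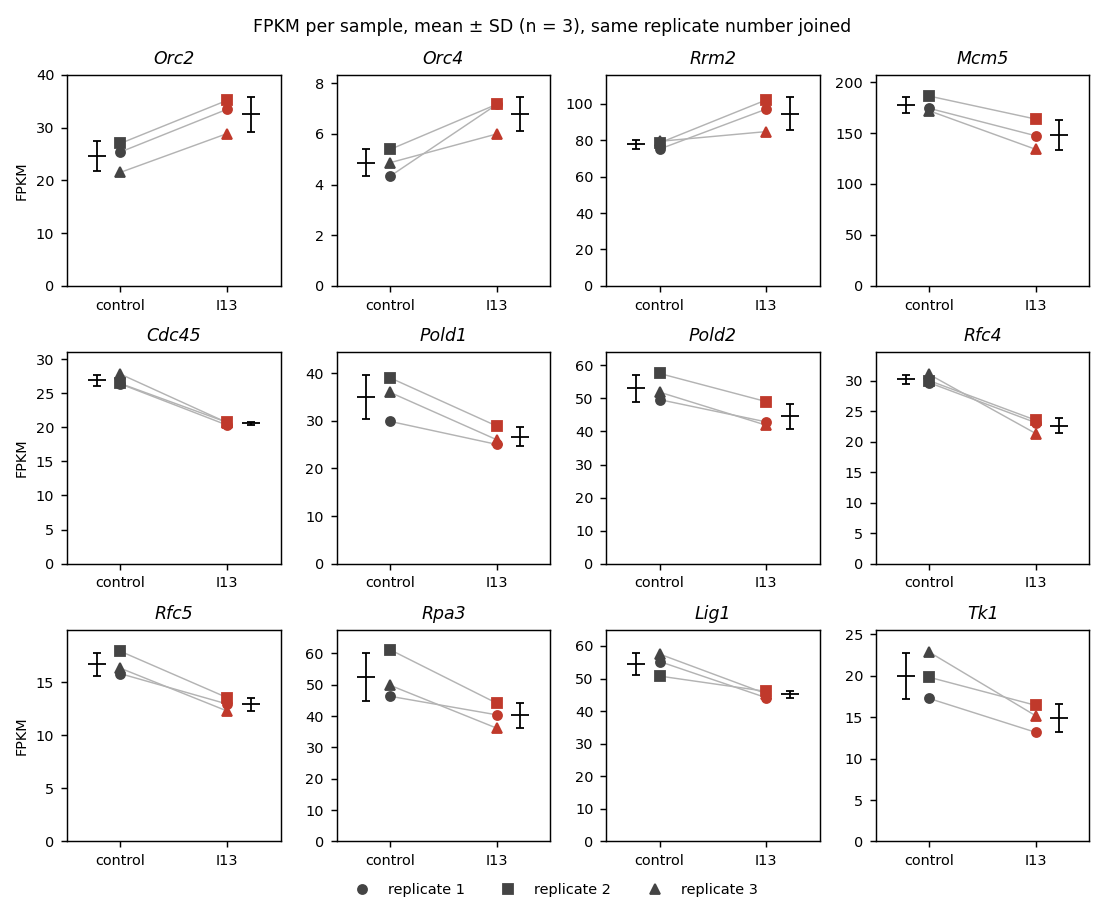
FPKM (y axis, from 0) of the 12 replication genes with an unadjusted p under 0.05 is plotted for each control and I13 sample, with the replicate number as the marker, lines joining the same number, and the mean ± SD (n = 3) beside each group. In each of the 12 genes the groups do not overlap, with Orc2, Orc4 and Rrm2 higher after I13 and the other 9 lower.

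The adjusted p of several genes depended on how replicate spread was modelled. The whole fragments behind the FPKM values could be recovered, and limma with voom weights on them, together with the replicate block, gave an adjusted p below 0.05 for 9 replication genes, against 12.4% of all genes. In that fit Orc2 and Orc4 rose, with adjusted p of 0.014 and 0.0218. Mcm5, Cdc45, Pold1, Rfc4, Rfc5, Rpa3 and Tk1 fell, with adjusted p between 0.0192 and 0.0444. Their log2 fold changes stayed between -0.42 and 0.48 in it, so none of the 48 genes met both thresholds for a call, which 4.14% of all genes did. Lig1, Rrm2 and Pold2 remained above 0.05, at 0.0554, 0.0599 and 0.0669. No samples were left out of the fit with voom and the block, so how far its values rest on single libraries was not tested.

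The values also varied with the replicate number. Summed over the replication genes, the replicate number held 46.6% of the variance of log2(FPKM + 0.1), the treatment 33.8% and the rest 19.6%, against 44.2%, 27.7% and 28.1% over all genes tested. With 2 degrees of freedom for the replicate number, 1 for the treatment and 2 for the rest, these numbers alone give shares of 40%, 20% and 40%, so the shares do not rank the replicate number above the treatment. Between samples of the same number, the median log2 difference of the replication genes was 0.16 for replicate 1, -0.03 for replicate 2 and -0.22 for replicate 3. Thus 31 of the 48 genes were higher after I13 in replicate 1, 21 in replicate 2 and 8 in replicate 3. Over all genes, 52.9%, 49.9% and 43.2% were higher in these pairs.

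Single libraries stood apart here. Relative to each gene's mean, the median deviation of the replication genes was -0.15, 0.15 and 0.07 in control replicates 1, 2 and 3, and 0.001, 0.13 and -0.18 in I13 replicates 1, 2 and 3. Over all genes tested it was -0.022, 0.055 and 0.002 in the controls and -0.001, 0.043 and -0.065 after I13. Control replicate 1 held the lowest value of 20 replication genes and I13 replicate 3 that of 18. The median log2 fold change of the 48 genes was 0.04 without control replicate 2 and also 0.04 without I13 replicate 3, and it was -0.14 without I13 replicate 2 and -0.12 without control replicate 1. The sign of the median therefore rested on single libraries. Summed over the 48 genes, the level was 1825, 2123 and 2012 FPKM in the controls and 1914, 2081 and 1744 FPKM after I13, with overlapping groups.

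**Figure D4:**
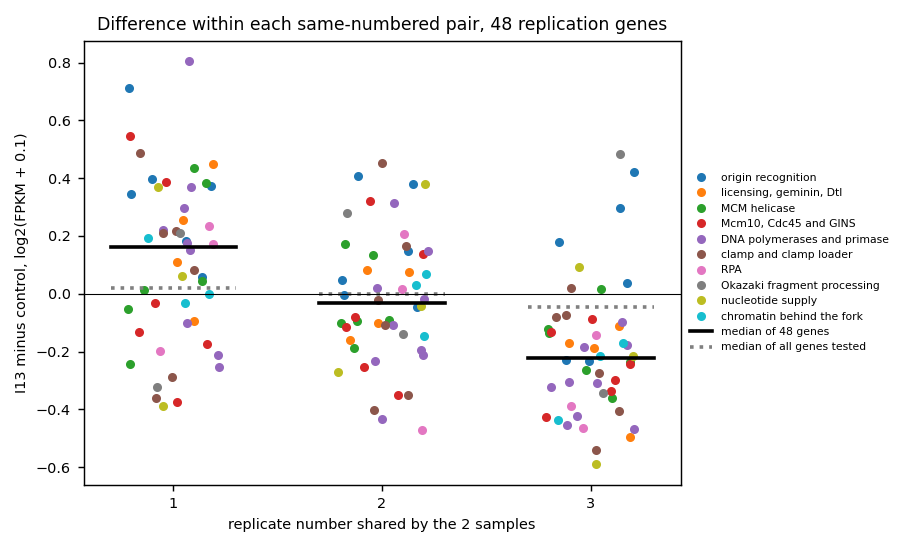
The log2 difference of I13 from the control of the same replicate number is plotted for each of the 48 replication genes, by pair, with the median marked. The median moves from 0.16 in replicate 1 to -0.22 in replicate 3, and 31, 21 and 8 of the 48 genes lie above 0.

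Against this background, 23 genes kept the same direction in all 3 pairs, 7 higher and 16 lower, while 51.5% of all genes did (24.1% higher and 27.3% lower). The 7 higher genes were Orc2, Orc3, Orc4, Mcm6, Rfc2, Fen1 and Rrm2. The 16 lower genes were Cdt1, Mcm3, Mcm5, Mcm10, Cdc45, Gins1, Gins4, Pola2, Pold1, Pold2, Rfc4, Rfc5, Rpa3, Lig1, Tk1 and Chaf1b. Both directions occurred within the MCM ring, the clamp loader, Okazaki fragment processing and nucleotide supply, and in the origin recognition complex only higher genes kept their direction.

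Among the 48 genes the log2 fold change ran from -0.42 to 0.47. In genes outside the 48 that act in replication, repair of forks and dormant origins it ran from -0.32 to 0.62. Of 42 such genes tested, 21 were higher and 21 lower, with a median log2 fold change of -0.01, and 5 had an unadjusted p under 0.05, 1 higher and 4 lower, against 18.6% of all genes (7.79% higher and 10.8% lower). Leaving out 1 library at a time gave a median from -0.10 (without I13 replicate 2) to 0.08 (without control replicate 2). The count at an unadjusted p under 0.05 ran from 2 without I13 replicate 1, against 12.2% of all genes, to 8 without I13 replicate 2, against 14.0%. Rrm2b, the ribonucleotide reductase subunit that p53 induces, was at 1.63, 1.86 and 1.67 FPKM in the controls and at 2.86, 2.97 and 2.32 FPKM after I13. The groups did not overlap, and its log2 fold change of 0.62 was the largest of these 42 genes (standard error 0.16, adjusted p = 0.127 from limma). With voom and the block Rrm2b rose with an adjusted p of 0.0162 from limma. It met both thresholds, the only gene of the 42 to do so, while 4.14% of all genes did.

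Rif1, which controls the timing of origin firing, was at 12.0, 14.7 and 14.3 FPKM in the controls and 19.1, 21.5 and 13.7 FPKM after I13, with overlapping groups and a log2 fold change of 0.38, which was 0.25 without I13 replicate 2. Chtf18, the large subunit of an alternative clamp loader that shares the small Rfc subunits, was at 14.9, 17.3 and 18.4 FPKM in the controls and at 12.7, 13.9 and 13.9 FPKM after I13. Its groups did not overlap, and its log2 fold change was -0.32 (adjusted p = 0.196 from limma). With voom and the block, 1 of the 42 genes rose (Rrm2b) and 2 fell at an adjusted p below 0.05, against 12.4% of all genes. The 2 were Chtf18 and Lrwd1, with adjusted p of 0.039 and 0.0452 from limma.

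Gene length differed widely among the 48 genes, from 1136 to 13709 bases with a median of 4045, as recovered from the FPKM values. Across them, Spearman's rho between length and log2 fold change was 0.21, against 0.08 across all genes tested. The genes share the 6 libraries and are not independent replicates, so this is a description.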

How the data were processed

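Total RNA was extracted with Trizol and made into stranded mRNA libraries. The authors deposited FPKM values per gene and sample, normalized for gene length and mapped fragments, with replicates not pooled. The submitters' processing notes name Trimmomatic, HISAT2, Cufflinks and HTSeq, and hg38 with human as the organism, whereas the table holds mouse gene identifiers, so the values were used as mouse genes. No coordinates or sequences are given, and some marker genes are not reported here by name. The number of value columns left without a sample was 0.

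Groups and replicate numbers came from the labels. Log2(FPKM + 0.1) was fitted with limma 3.58.1 in R 4.3.3 (eBayes with a trend) in the 12163 genes whose mean FPKM reached 0.5. Called genes had a Benjamini-Hochberg adjusted p under 0.05 and a log2 fold change of 0.58 or more in size. Whole fragments and gene lengths were recovered from the deposited FPKM for 22413 of 22413 genes (100%), within 0.002 fragments, and 99.47% to 99.5% of each library total fell on listed genes. Intervals are those of limma. The steps were run on simulated data, which held no effect of the replicate number and so say nothing on the pairing.

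Same-numbered samples deviated together, with correlations across genes of 0.15, 0.30 and 0.22 for replicates 1, 2 and 3, against -0.26 to 0.05 for other pairings. Deviations were taken from the mean of each group and so cancel over its samples. Positive values for the same numbers thus force lower ones elsewhere, and the other pairings are no separate support. As all 3 same-number correlations exceeded 0.1, the numbers were taken as a pairing. The fit with the replicate block is given beside the main comparison, which was set without it. The pairing rests on the numbers in the labels, which do not say what a number marks.

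The 48 genes and the other lists were chosen with earlier results of these data known. Values in every sample are given for the gene with the largest absolute change and that with the highest FPKM in each role, for genes with an unadjusted p below 0.05 without overlap, for any gene called, and for the 3 largest changes in each other list. Values of Pola1 and Rfc2 were added after they were seen. Alternatives were other pseudocounts, filters and scalings (median ratio, TPM), the replicate block, voom on the fragments, and leaving out samples or pairs. Samples or pairs were left out only in fits without voom. Figures used matplotlib 3.10.9.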

Additional observations from a re-analysis of the deposited data

How the results depend on the processing

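The comparison rests on 3 samples a group, and the replication genes had at least 65 fragments in every sample. Over all genes tested, 4 genes were called higher and 1 lower, 5 had an adjusted p below 0.05 from limma and 2266 an unadjusted p below 0.05. With a pseudocount of 0.01 or median-ratio scaling, 2 were higher, 0 lower and 2 had an adjusted p below 0.05, and without a filter on low values 3 were lower and 8 had an adjusted p below 0.05. With the replicate block these counts were 166 higher, 64 lower, 364 and 3409 unadjusted, and with the block and voom 375, 128, 1507 and 3743. The pairing by replicate number thus changed the calls of all genes, while among the replication genes it gave 1 with an adjusted p below 0.05, and 9 with voom. Leaving out each sample in turn gave 0 called genes and 0 with an adjusted p below 0.05, with 1478 to 2482 unadjusted. In the blocked fit, dropping the samples of each number in turn gave 0 to 78 higher, 0 to 5 lower, 0 to 85 with an adjusted p below 0.05 and 1638 to 3160 unadjusted.

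Among the replication genes, leaving out samples moved the count with an unadjusted p below 0.05 from 5 to 14 (10 to 16 with the block). The 5 were without I13 replicate 1 and the 14 without control replicate 1, against 12.2% and 13.1% of all genes. With the block, the 10 were without replicate 2 and the 16 without replicate 1, against 13.5% and 21.9% of all genes. The count of positive changes ran from 14 to 28 (13 to 30 with the block). The median log2 fold change ran from -0.14 to 0.04 (-0.13 to 0.07 with the block). The cause was not tested. With TPM the median was -0.02 and with median-ratio scaling -0.04. Among the genes chosen by the rule, sign changes came from leaving out samples or pairs, for Orc6 (-0.10 to 0.20, and -0.090 to 0.21 with the block), Pcna (-0.082 to 0.10, and -0.047 to 0.094) and Uhrf1 (-0.14 to -0.02, and -0.11 to 0.015). The other genes chosen by the rule kept their sign in all settings run. Some of the remaining replication genes changed sign, and with TPM or median-ratio scaling the count of positive changes was 21 in place of 20.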

Other observations

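Genes of the G1 regulators that act before replication, a list of 26 tested cyclins, cyclin-dependent kinases, their inhibitors, RB and E2F genes, had a median log2 fold change of 0.00, with 13 higher and 13 lower, and 7 had an unadjusted p below 0.05, 4 higher and 3 lower, against 18.6% of all genes (7.79% higher and 10.8% lower). With 1 library left out, this count went from 4 without I13 replicate 1, against 12.2% of all genes, to 6. It was 6 without control replicate 1, control replicate 3 or I13 replicate 3, against 13.1%, 17.5% and 20.4% of all genes. The median ran from -0.09 (without control replicate 1) to 0.05 (without control replicate 2). Cdkn2a, which encodes inhibitors of the cell cycle, was at 6.79, 2.27 and 6.63 FPKM in the controls and at 11.2, 10.8 and 14.7 FPKM after I13, a log2 fold change of 1.35 (adjusted p = 0.159 from limma), which was 0.84 without control replicate 2. Rb1, the retinoblastoma gene, was at 10.2, 10.9 and 11.7 FPKM in the controls and at 18.3, 20.1 and 13.4 FPKM after I13, a log2 fold change of 0.64 (adjusted p = 0.126). Cyclin E2, from Ccne2, was at 5.68, 8.81 and 8.61 FPKM in the controls and at 10.5, 12.5 and 9.15 FPKM after I13, a log2 fold change of 0.48 (adjusted p = 0.252), which was 0.28 without control replicate 1. In all 3 genes every I13 sample lay above every control, and with voom and the block Cdkn2a and Rb1 rose, with adjusted p of 0.015 and 0.0178 from limma, and 2 genes of the list fell, against 12.4% of all genes with an adjusted p below 0.05. With the block alone, Cdk4 and E2f4 fell, with log2 fold changes of -0.47 and -0.36 and adjusted p of 0.049 and 0.0478 from limma, and both were added here after their values were seen. In that fit 2.99% of all genes had an adjusted p below 0.05, and 1.24% were lower at that threshold. Dropping replicate 1, 2 or 3 from it left 0 genes of the list below 0.05, against 0.699%, 0% and 0% of all genes.

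Of 24 mitotic genes, 8 were higher and 16 lower, with a median log2 fold change of -0.10, and 7 had an unadjusted p below 0.05, 2 higher and 5 lower, against the same share of all genes. Without I13 replicate 3 the median was 0.03, with 7 higher and 2 lower at that threshold, against 10.6% and 9.84% of all genes. Without control replicate 2 the median was 0.0005. The count was 3 without control replicate 1, control replicate 2 or I13 replicate 1, against 13.1%, 15.8% and 12.2% of all genes. It was 4 without I13 replicate 2, against 14.0% of all genes. The kinase gene Plk1 was at 88.4, 91.1 and 71.1 FPKM in the controls and at 65.2, 63.7 and 59.7 FPKM after I13, a log2 fold change of -0.40 (adjusted p = 0.151 from limma). The kinetochore genes Cenpf and Cenpe had the opposite sign, with log2 fold changes of 0.64 and 0.40 (adjusted p = 0.185 and 0.255). Cenpf was at 4.14, 5.17 and 4.76 FPKM in the controls and at 8.25, 9.12 and 5.28 FPKM after I13. Cenpe was at 12.6, 12.5 and 12.6 FPKM in the controls and at 18.4, 19.5 and 12.7 FPKM after I13, and I13 replicate 3 lay close to the controls in both genes. With voom and the block, 1 mitotic gene rose and 4 fell at an adjusted p below 0.05, against 12.4% of all genes. Cenpf rose and Plk1 was among the 4, with adjusted p of 0.0213 and 0.0179 from limma.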
